A study of Mus musculus with 8 samples.

Results

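The surface markers described here are 9 genes whose products are used, mostly through antibodies, to tell progenitors and subsets of thymic epithelial cells (TECs) apart. They were *Ly6a*, *Ly6d*, *Ly6e*, *Plet1*, *Cd24a*, *Pdpn*, *Cd44*, *Cd9* and *Prom1*, taken by name as 9 of the 56923 genes in the count tables. TECs form the epithelial scaffold of the thymus, in which T cells develop, and cortical and medullary TECs descend from bipotent progenitors in the embryo. PLET1 is the best-known surface marker of those embryonic progenitors, and LY6A (Sca1) has been used to split adult TECs into fractions with different capacity for growth. The other members mark junctional or maturing TECs, or are shared with progenitors of other epithelia, so each is a label for a cell state and is not unique to the thymus.

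Bulk 3′ RNA sequencing covered 4 groups of wild-type C57BL/6J TECs, with 2 libraries per group. All cells were EpCAM+ and sorted from E16.5 thymi of embryos, after staining for CD45, Ter119, PDGFR-α, PDGFR-β, CD31 and MHCII. *In vivo* TECs were lysed straight after the sort, while 2D-cultured TECs grew for 3 days on laminin until they were confluent. TEC organoids grew in drops of Matrigel, a basement membrane extract, and were collected at day 3 (D3 organoids) or day 7 (D7 organoids). Both kinds of culture were kept in the same medium with FGF7, an epithelial growth factor. Thiazovivin, a ROCK inhibitor, is described for the first 2 days of organoid culture. Whether 2D cultures also received it is not stated. 2D-cultured TECs and D3 organoids had the same time in culture, whereas D7 organoids had no 2D counterpart of their age, so time and matrix cannot be told apart between D7 organoids and 2D-cultured TECs. The labels call the 2 libraries of a group biological replicates, and the paper describes them as 2 mice per condition. In bulk samples, fewer cells that express a gene and less RNA per cell cannot be told apart.

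Libraries held between 5084715 and 7612532 counts on genes. *Epcam*, the gene of the sorted surface protein, was measured in every group, and *Foxn1*, the master transcription factor of TECs, was at 249 CPM *in vivo*, 6.69 in 2D, 9.22 in D3 organoids and 72.9 in D7 organoids (group means, n = 2). CPM is the count relative to the library size after TMM scaling. Transcripts of thymocytes were most abundant in the fresh TECs, where the summed CPM of 14 thymocyte markers was 319 to 729. It was 8.73 to 13.7 in 2D, 3.72 to 4.75 in D3 organoids and 5.46 to 10.9 in D7 organoids. *Ptprc*, which encodes the CD45 used in the sort, had 549 and 298 counts *in vivo* and at most 8 in any cultured library. Thymocytes carry CD24, CD44 and proteins of the Ly6 family too, so this RNA moves with every comparison against *in vivo* TECs, and its part in them was not tested. Of the endothelial genes, *Cdh5* was at 0 counts in all 8 libraries, while *Pecam1*, which encodes the CD31 of the sort, had 21 and 37 counts *in vivo* and at most 3 elsewhere. The summed CPM of 10 endothelium markers was 5.05 to 10.3 *in vivo*, 12.7 to 13.4 in 2D, 0.845 to 3.22 in D3 organoids and 2.11 to 2.77 in D7 organoids, and the part of such cells in the results was not tested either. In 2D most of that sum was *Flt1*, at 9.46 CPM in the mean. The summed CPM of 10 mesenchyme markers was 51.3 to 52.7 *in vivo*, 36.9 to 41.5 in 2D, 22.6 to 26.9 in D3 organoids and 74.3 to 82.6 in D7 organoids. The same sum for 10 myeloid markers was 6.96 to 11.3, 7.09 to 9.1, 2.2 to 3.77 and 17.4 to 21.2 in the same order. In D7 organoids most of the mesenchyme sum was *Dcn* (mean 52.3 CPM). *Lum* was next at 11.2 CPM there, against 1.9 *in vivo*, 0.0928 in 2D and 2.22 in D3 organoids. *Col1a2* was at 6.34, *Col3a1* at 3.22 and *Col1a1* at 1.34 CPM in D7 organoids. The D7 organoids had 7 and 1 counts of *Pdgfra* and 2 and 0 of *Pdgfrb*. Most of their myeloid sum was *Lyz2* (11.2 CPM) and *Cd14* (6.02), with *Csf1r* at 0 counts in both libraries. What part such cells had in these sums was not tested.

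Promoter sequences of RefSeq were at hand for 5 of the 9 members on GRCm38.p6, an older build than the one the reads were aligned to, and each covers 250 bases before and 50 after a start of transcription. Those of 4 members are shown, chosen after their values were seen. *Plet1* and *Pdpn* were both low *in vivo* and high in every culture, while *Cd44* was highest in 2D and *Prom1* in D7 organoids. Capitals mark matches, on either strand, to 3 of the motifs searched. The AP-1 motif was written as TGANTCA. The GC box was GGGCGG, which a match on the other strand shows reversed and complemented. The TATA box was searched with the letters TATAAA. The window of *Cd44* lies at chr2:102901616-102901915 (minus strand), that of *Pdpn* at chr4:143299515-143299814 (minus strand), that of *Prom1* at chr5:44101687-44101986 (minus strand, 1 of its 2 entries) and that of *Plet1* at chr9:50494275-50494574 (plus strand).
Cd44: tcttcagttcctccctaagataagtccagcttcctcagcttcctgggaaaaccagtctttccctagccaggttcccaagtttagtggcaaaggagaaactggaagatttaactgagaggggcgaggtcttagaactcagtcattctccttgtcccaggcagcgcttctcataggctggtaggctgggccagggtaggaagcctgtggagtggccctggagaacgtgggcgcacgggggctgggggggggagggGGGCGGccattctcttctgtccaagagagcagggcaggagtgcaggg
Pdpn: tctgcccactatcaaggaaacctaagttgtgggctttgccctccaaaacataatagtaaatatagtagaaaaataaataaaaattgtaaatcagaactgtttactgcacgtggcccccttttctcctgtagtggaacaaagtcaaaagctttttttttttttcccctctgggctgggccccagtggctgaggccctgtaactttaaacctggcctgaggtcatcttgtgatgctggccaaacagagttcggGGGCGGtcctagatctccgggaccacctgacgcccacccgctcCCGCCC
Prom1: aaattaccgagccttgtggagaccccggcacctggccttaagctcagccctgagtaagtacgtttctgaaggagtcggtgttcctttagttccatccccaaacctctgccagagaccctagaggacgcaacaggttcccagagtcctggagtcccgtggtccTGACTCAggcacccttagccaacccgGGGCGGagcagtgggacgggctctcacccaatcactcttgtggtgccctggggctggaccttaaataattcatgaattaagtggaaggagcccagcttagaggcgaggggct
Plet1: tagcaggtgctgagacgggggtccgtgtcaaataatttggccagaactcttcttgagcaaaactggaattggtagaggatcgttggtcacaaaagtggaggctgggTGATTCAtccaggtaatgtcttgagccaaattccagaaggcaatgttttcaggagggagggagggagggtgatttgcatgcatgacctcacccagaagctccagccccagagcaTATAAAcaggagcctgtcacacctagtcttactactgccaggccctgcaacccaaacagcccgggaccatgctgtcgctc

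An AP-1 match stood in the windows of *Plet1* and *Prom1*, at 144 and 88 bases before the start, and in 7.81% of all 32851 promoters of this length. The TATA box match of *Plet1* began 30 bases before the start, and 13.6% of promoters held one. GC box matches stood in the windows of *Cd44*, *Pdpn* and *Prom1* and in 35.7% of promoters. The TEAD motif CATTCC (14.7% of promoters) and the STAT motif TTCNNNGAA (8.3%) were also searched and were not found in these 4 windows as complete matches. These matches describe letters in a window and show no binding.

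Of the 9 members, 7 were higher in 2D-cultured than in *in vivo* TECs, and the other two did not pass the threshold. In the background of 14504 genes tested, 41.6% differed, with 21.7% higher *in vivo* and 19.9% higher in 2D. The median log2 fold change of the members (*in vivo* over 2D) was -2.52, beside 0.06 over all genes. Between *in vivo* TECs and D7 organoids 7 members also differed, 6 of them higher in organoids and *Cd44* higher *in vivo*, where 34.8% of all genes did (16.8% higher *in vivo*, 18% higher in D7 organoids). The members' median there was -1.27, beside -0.01 over all genes. Against D3 organoids, 6 members differed and these 6 were higher in organoids, beside 28.2% of all genes (14.0% higher *in vivo*, 14.1% higher in D3 organoids), with a median of -1.21 beside 0.01. These 3 comparisons share the *in vivo* libraries.

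Between the cultures the members split. For D7 organoids over 2D-cultured TECs 6 members passed the threshold, of which *Ly6d* and *Prom1* were higher in organoids and *Ly6a*, *Plet1*, *Cd44* and *Cd9* were higher in 2D, beside 45.5% of all genes (24.4% higher in D7 organoids, 21.1% higher in 2D). For D3 organoids over 2D-cultured TECs 5 members did, *Prom1* being higher in organoids and *Ly6a*, *Ly6e*, *Cd24a* and *Cd44* higher in 2D, beside 38.3% of all genes (19.3% higher in D3 organoids, 19.1% higher in 2D). That count was 3 without 2D replicate 1 and 3 without D3 replicate 1. From D3 to D7 organoids *Ly6d*, *Ly6e* and *Prom1* rose and *Plet1*, *Cd44* and *Cd9* fell, or 6 of 9 members beside 20.8% of all genes (10.9% higher at D7, 9.91% higher at D3). The medians of the members in these comparisons were -0.27, -0.29 and 0.14, beside 0.10, 0.03 and 0.06 over all genes. A difference is written as such where edgeR's quasi-likelihood test gave a Benjamini-Hochberg adjusted p of at most 0.05 over the 14504 genes, and 9 of 9 members were among the genes tested.

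**Figure D1:**
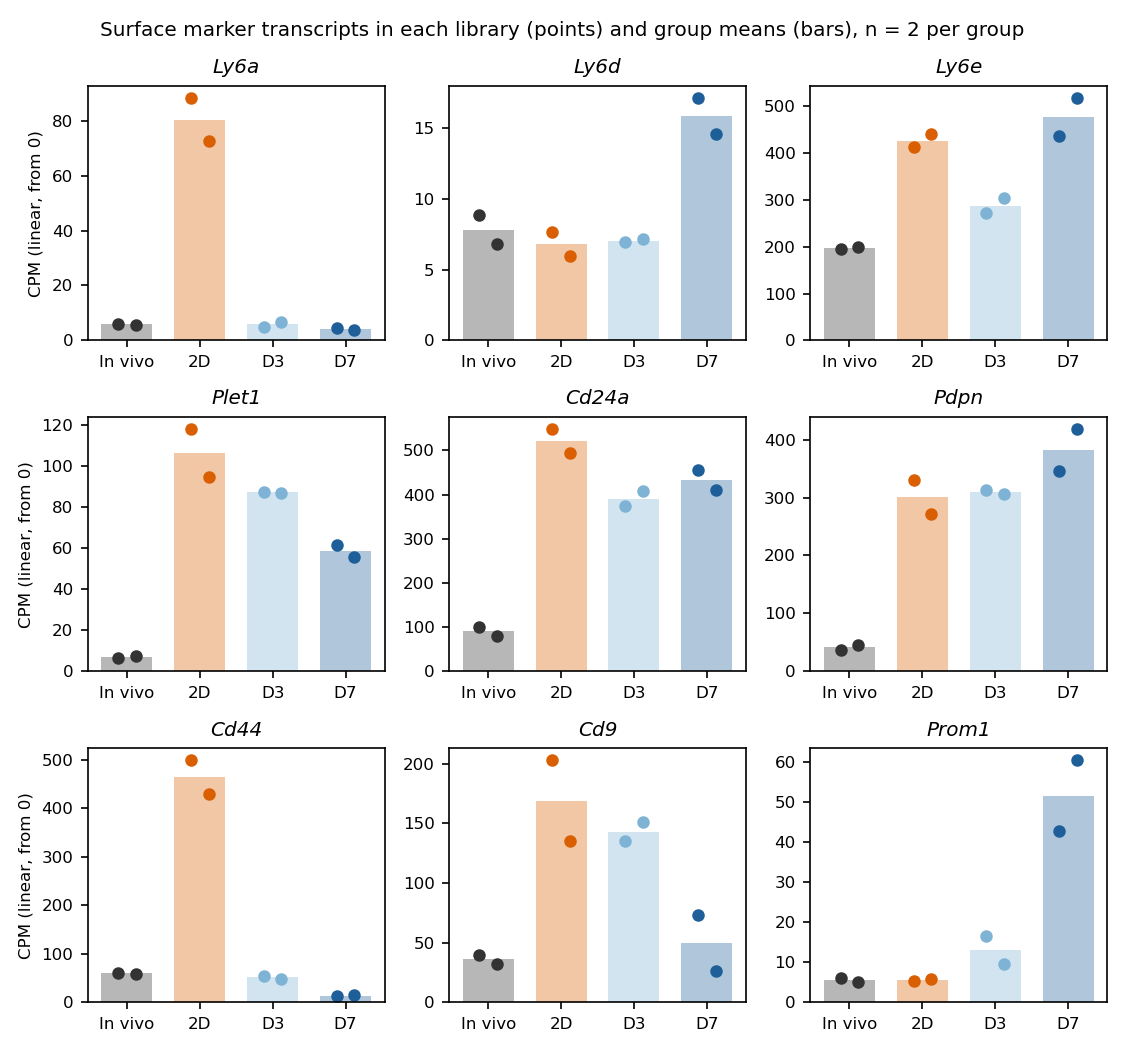
Each panel plots the CPM of 1 member (linear vertical axis from 0, its own scale) in *in vivo* TECs, 2D-cultured TECs, D3 organoids and D7 organoids, with a point for each of the 2 libraries and a bar for their mean. *Cd44* and *Ly6a* stand out in 2D (464 and 80.4 CPM in the mean), *Prom1* and *Ly6d* in D7 organoids (51.6 and 15.9 CPM), and *Plet1*, *Cd24a* and *Pdpn* in every culture.

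**Figure D2:**
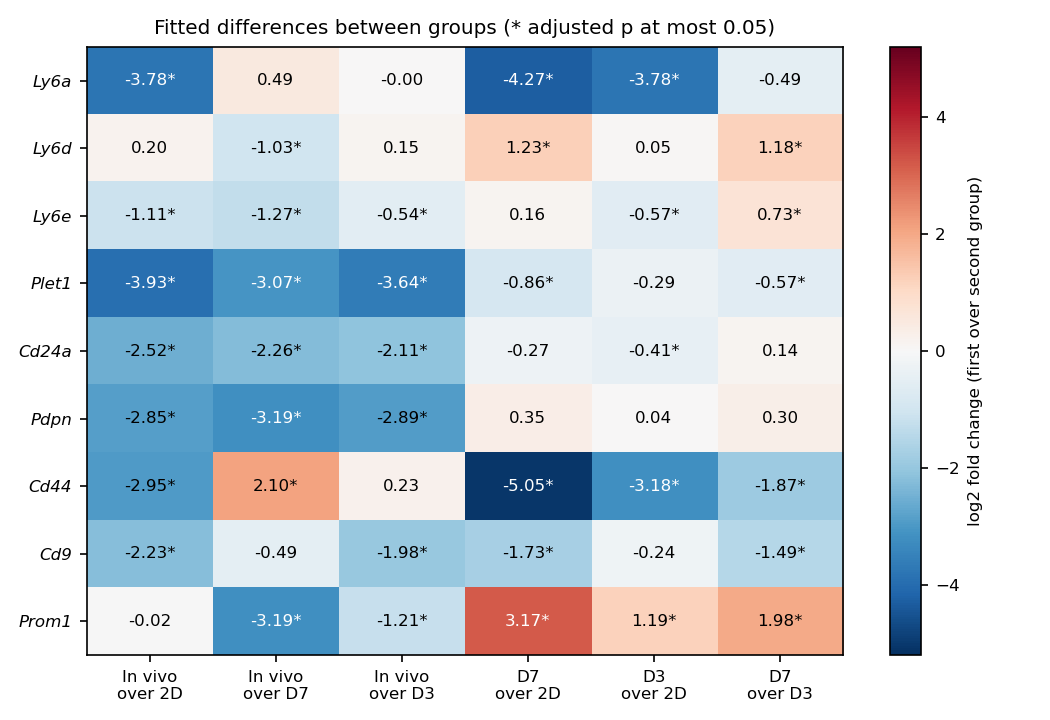
The grid gives the fitted log2 fold change of each member (rows) in each of the 6 comparisons (columns, first group over second), with red for higher in the first group, blue for higher in the second and an asterisk for an adjusted p of at most 0.05. The deepest blue is *Cd44* in D7 organoids over 2D-cultured TECs (-5.05) and the strongest red is *Prom1* in the same column (3.17).

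*Plet1* (ENSMUSG00000032068, chromosome 9 of GRCm39, 50405817 to 50420299, plus strand) encodes the progenitor marker of the embryonic thymus, which is held in the membrane by a GPI anchor. It had 37 and 53 counts *in vivo* (6.44 and 7.48 CPM), against 649 and 511 in 2D (118 and 94.9 CPM). In D3 organoids there were 517 and 622 counts (87.4 and 87 CPM), and in D7 organoids 495 and 282 (61.4 and 55.8 CPM). Every cultured library was far above both *in vivo* libraries, and the D7 libraries lay below the other cultures. The fold was 15.2 for 2D-cultured TECs over *in vivo* TECs (log2 fold change of *in vivo* over 2D -3.93, standard error 0.22, adjusted p = 2.2e-10). D3 organoids exceeded *in vivo* TECs 12.4-fold (adjusted p = 1.1e-09) and D7 organoids 8.37-fold (adjusted p = 9.6e-09). D7 organoids had less *Plet1* than 2D-cultured TECs (log2 fold change -0.86, standard error 0.18, adjusted p = 0.00086) and than D3 organoids (-0.57, standard error 0.18, adjusted p = 0.031). With any of the D3 or D7 libraries left out, the second of these was not past the threshold (adjusted p 0.065 to 0.22). D3 organoids and 2D-cultured TECs were not told apart in *Plet1* (-0.29, 95% interval -0.66 to 0.08). *Plet1os*, an antisense gene that overlaps *Plet1*, had 0 to 7 counts per library.

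*Pdpn* and *Cd24a* had the same broad shape, low in fresh TECs and high in every culture. *Pdpn* (ENSMUSG00000028583, chromosome 4, 142990871 to 143026143, minus strand) encodes podoplanin, a mucin-like glycoprotein that binds ERM proteins and, on platelets, CLEC-2, and it marks TECs at the junction of cortex and medulla. Its CPM was 36.9 and 46.3 *in vivo*, 330 and 271 in 2D, 313 and 306 in D3 organoids, and 346 and 418 in D7 organoids. No cultured library came near the *in vivo* pair. *Pdpn* was 7.21-fold higher in 2D (log2 fold change of *in vivo* over 2D -2.85, standard error 0.18, adjusted p = 1.1e-09), 7.42-fold higher in D3 organoids (adjusted p = 1.9e-09) and 9.15-fold higher in D7 organoids (adjusted p = 8e-10) than *in vivo*. Among cultures no difference passed the threshold, with 0.35 for D7 organoids over 2D-cultured TECs (95% interval 0.00 to 0.69, adjusted p = 0.095) and 0.30 for D7 over D3 organoids (-0.04 to 0.65), although the D7 libraries were the highest. The D7 difference from 2D was past the threshold with no scaling beyond library size (0.54, adjusted p = 0.012) and with a filter at a mean of 10 CPM (0.41, adjusted p = 0.039).

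*Cd24a* (ENSMUSG00000047139, chromosome 10, 43454280 to 43460264, plus strand) encodes CD24, a small GPI-anchored sialoglycoprotein of immature lymphoid and epithelial cells. Its CPM was 101 and 80.7 *in vivo*, 548 and 494 in 2D, 375 and 407 in D3 organoids, and 455 and 410 in D7 organoids. The *in vivo* pair was again apart from the 6 cultured libraries. 2D-cultured TECs exceeded *in vivo* TECs 5.75-fold (log2 fold change of *in vivo* over 2D -2.52, standard error 0.16, adjusted p = 1.4e-09), D7 organoids 4.78-fold (adjusted p = 1.2e-08) and D3 organoids 4.32-fold (adjusted p = 2.1e-08). D3 organoids had slightly less than 2D-cultured TECs (log2 fold change -0.41, standard error 0.15, adjusted p = 0.04), a call lost in 4 of the 9 alternatives in which no single library is left out, with -0.15 (adjusted p = 0.48) under no scaling beyond library size as the farthest. It was also lost without any 1 of the 2D, D3 or D7 libraries (adjusted p 0.051 to 0.2). *Mtres1* overlaps the start of *Cd24a* on the other strand and had 102 to 205 counts per library, and whether the counting used the strand is not given in the sources used here.

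Across the 8 libraries the log2(CPM + 0.5) values of *Plet1*, *Cd24a* and *Pdpn* had Pearson correlations of 0.98 (*Plet1* and *Cd24a*), 0.97 (*Cd24a* and *Pdpn*) and 0.95 (*Plet1* and *Pdpn*), which describe 4 groups more than 8 independent points. The genes most like *Plet1* by the same measure were *Scx* (r = 0.997 over 8 libraries), which encodes the tendon transcription factor scleraxis, and *App* (r = 0.995), the amyloid precursor. *Scx* had 8 and 14 counts *in vivo* and 132 CPM in 2D, 125 in D3 organoids and 60.4 in D7 organoids. For *Pdpn* they were *Mlec* (0.995) and the potassium channel gene *Kcnk1* (0.993), and for *Cd24a* they were *Hmgn3* (0.993) and *P3h4* (0.991). *Kcnk1* went from 7.92 CPM *in vivo* to 150 in 2D, 124 in D3 organoids and 165 in D7 organoids, and *Hmgn3* from 9.68 to 76.7, 52.8 and 72.9.

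*Cd44* (ENSMUSG00000005087, chromosome 2, 102641486 to 102732010, minus strand) encodes the main receptor for hyaluronan, the large sugar polymer of loose matrix. It had 351 and 421 counts *in vivo* (61.1 and 59.4 CPM), 2746 and 2311 in 2D (499 and 429 CPM), 326 and 341 in D3 organoids (55.1 and 47.7 CPM), and 100 and 81 in D7 organoids (12.4 and 16 CPM). The order was therefore 2D, *in vivo*, D3 and D7, and the libraries of no pair of groups overlapped. 2D-cultured TECs were 33-fold above D7 organoids (log2 fold change of D7 over 2D -5.05, standard error 0.20, adjusted p = 6.4e-12) and 9.04-fold above D3 organoids (adjusted p = 4.1e-10). They were 7.71-fold above *in vivo* TECs (log2 fold change of *in vivo* over 2D -2.95, standard error 0.17, adjusted p = 5.1e-10). *Cd44* was the only member that D7 organoids held at a lower level than *in vivo* TECs past the threshold, 4.29-fold (log2 fold change of *in vivo* over D7 2.10, standard error 0.19, adjusted p = 2.1e-07). It fell 3.65-fold from D3 to D7 organoids (adjusted p = 5.1e-06). The neighbours *in vivo* TECs and D3 organoids were not told apart (0.23, 95% interval -0.13 to 0.59, adjusted p = 0.35).

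The genes of the partners of CD44 and podoplanin are a list of 23, of which 19 were tested. Against *in vivo* TECs, 9 of the 19 were higher in 2D and 3 lower, with a median log2 fold change (*in vivo* over 2D) of -0.21 beside 0.06 over all genes. D7 organoids had 3 higher and 7 lower than 2D (median -0.11), and from D3 to D7 organoids 6 fell and 0 rose (median -0.03). *In vivo* over D7 organoids, 3 were higher and 5 lower, over D3 organoids 4 and 5, and D3 organoids over 2D-cultured TECs 3 and 6. Beside these counts, 41.6% of all genes differed between *in vivo* TECs and 2D, 34.8% against D7 and 28.2% against D3 organoids. The shares were 45.5% for D7 against 2D, 38.3% for D3 against 2D and 20.8% for D7 against D3. Of the ERM proteins, which tie the tails of CD44 and podoplanin to actin, only *Msn* (moesin) went with *Cd44*. It was at 29.9 ± 6.42 CPM *in vivo*, 407 ± 2.67 in 2D, 12.2 ± 4.45 in D3 organoids and 2.86 ± 2.11 in D7 organoids (SD, n = 2), a 156-fold difference between 2D-cultured TECs and D7 organoids (adjusted p = 5.5e-11). *Ezr* (ezrin) was between 321 and 399 CPM and *Rdx* (radixin) between 382 and 470 CPM in the group means, and neither differed past the threshold *in vivo* against any culture or between D7 organoids and 2D. *Mmp14*, a membrane protease that cleaves CD44, was 3.21-fold higher in 2D than *in vivo* (adjusted p = 6.4e-08) and 3.42-fold higher than in D7 organoids (adjusted p = 4e-08).

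The hyaluronan synthases went opposite ways. *Has2* was at 92 ± 12 CPM in 2D and between 4.1 and 6.58 CPM in the means of the other groups, and 2D-cultured TECs exceeded *in vivo* TECs 22.2-fold (adjusted p = 6.4e-09). *Has3* was lowest in 2D at 2.12 ± 0.94 CPM, with 10.8 ± 0.274 *in vivo*, 88.4 ± 4.31 in D3 organoids and 29.9 ± 9.06 in D7 organoids (SD, n = 2). D3 organoids exceeded 2D-cultured TECs 41.4-fold in *Has3* (adjusted p = 1.2e-09). *Spp1* encodes osteopontin, another ligand of CD44. It was high in both cultures of 3 days, at 90.8 ± 36 CPM in 2D and 108 ± 1.41 in D3 organoids, and low at 1.89 ± 0.398 in D7 organoids (SD, n = 2). The genes nearest to *Cd44* in pattern were *Prkg2* (r = 0.991) and *Tmsb10* (r = 0.989), which encodes a thymosin that binds actin monomers. *Tmsb10* was at 51.5 CPM *in vivo*, 152 in 2D, 34.3 in D3 organoids and 16.9 in D7 organoids. *Msn*, *Has2*, *Has3* and *Spp1* were chosen from the list after their values were seen.

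**Figure D3:**
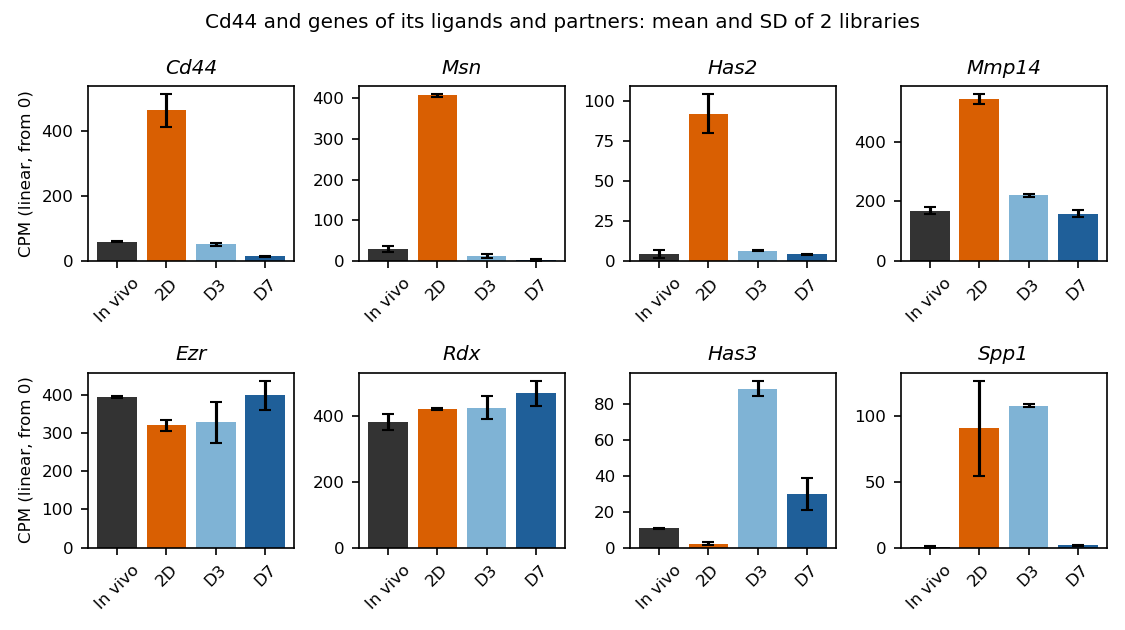
Mean CPM (bars, linear axis from 0, a scale per panel) and SD of 2 libraries (error bars) of *Cd44* and 7 genes of its ligands and partners in the 4 groups. *Msn* (407 CPM), *Has2* (92 CPM) and *Mmp14* (542 CPM) share with *Cd44* their high 2D bar, *Ezr* and *Rdx* are nearly level, *Has3* is highest in D3 organoids (88.4 CPM), and *Spp1* is high in 2D and D3 organoids.

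*Prom1* (ENSMUSG00000029086, chromosome 5, 44150962 to 44259395, minus strand) encodes prominin 1 (CD133), a pentaspan protein of membrane protrusions on the apical side of epithelia and a marker of progenitors in several of them. It had 35 and 37 counts *in vivo* (6.09 and 5.22 CPM), 30 and 32 in 2D (5.46 and 5.94 CPM), 99 and 68 in D3 organoids (16.7 and 9.51 CPM), and 344 and 306 in D7 organoids (42.7 and 60.5 CPM). Organoid libraries were above the *in vivo* and 2D libraries, which overlapped each other, and D7 was above D3. D7 organoids exceeded *in vivo* TECs 9.1-fold (log2 fold change of *in vivo* over D7 -3.19, standard error 0.32, adjusted p = 7.2e-07), 2D-cultured TECs 9-fold (adjusted p = 5.1e-07) and D3 organoids 3.94-fold (adjusted p = 0.00021). D3 organoids exceeded *in vivo* TECs by 2.31-fold (adjusted p = 0.011) and 2D-cultured TECs by 2.28-fold (adjusted p = 0.0094). Without D3 replicate 1, the fitted log2 fold change of D3 organoids over 2D-cultured TECs went from 1.19 to 0.74 (adjusted p = 0.14) and that of *in vivo* TECs over D3 organoids from -1.21 to -0.75 (adjusted p = 0.17). The first of these was also lost with limma-voom (adjusted p = 0.055) and without 2D replicate 1 (adjusted p = 0.069), and the second without *in vivo* replicate 2 (adjusted p = 0.059). *In vivo* and 2D-cultured TECs were not told apart (-0.02, 95% interval -0.78 to 0.75). *Prom2*, the paralogue of *Prom1*, was also chosen after its values were seen. It was at 3.91 ± 0.138 CPM *in vivo*, 6.78 ± 2.5 in 2D, 38.4 ± 0.695 in D3 organoids and 14.1 ± 5.36 in D7 organoids (SD, n = 2). Where *Prom1* rose from D3 to D7, *Prom2* fell 2.68-fold (adjusted p = 0.0032). The most like genes were *Anapc7* (r = 0.994) and *Sftpa1* (r = 0.988), a surfactant protein gene with 0 counts *in vivo* and in 2D, 4 and 7 in D3 organoids and 48 to 89 in D7 organoids.

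*Cd9* (ENSMUSG00000030342, chromosome 6, 125437210 to 125471778, minus strand) encodes a tetraspanin, a scaffold protein that gathers integrins and other receptors in the membrane. Its CPM was 39.9 and 32.6 *in vivo*, 203 and 135 in 2D, 135 and 151 in D3 organoids, and 73.3 and 26.7 in D7 organoids. Both cultures of 3 days were above *in vivo* TECs, and the D7 libraries lay on either side of the *in vivo* pair. 2D-cultured TECs were 4.68-fold above *in vivo* TECs (log2 fold change of *in vivo* over 2D -2.23, standard error 0.32, adjusted p = 2.4e-05) and D3 organoids 3.95-fold (adjusted p = 0.00013). *Cd9* was lower in D7 organoids than in 2D (log2 fold change -1.73, standard error 0.31, adjusted p = 0.00023) and than in D3 organoids (-1.49, standard error 0.31, adjusted p = 0.0026). Without D7 replicate 1 these values were -2.66 and -2.42, and without D7 replicate 2 the second was -0.96, each still past the threshold. *In vivo* TECs over D7 organoids gave -0.49 (standard error 0.32, adjusted p = 0.25). That value was 0.44 without D7 replicate 1 (adjusted p = 0.27) and -1.02 without D7 replicate 2 (adjusted p = 0.0043), so each D7 library decided it. With no filter on low counts and every library kept it was -0.53, past the threshold (adjusted p = 0.037). The D7 libraries had 591 and 135 counts, a ratio of 2.75 in CPM. Of 4173 genes at a like level in D7 organoids, between 0.5 and 2 times that of *Cd9*, 6 differed as far or farther between the 2 libraries, *Snx3*, *Gnb2*, *9530068E07Rik*, *Gas6* and *Sem1* in the same direction and *H19* in the other. These 6 genes are named after their values were seen. The 2D libraries of *Cd9* were also far apart, with a ratio of 1.5 in CPM. In 2D, 37 of 1759 genes at a like level differed as far or farther, which limits the 2D calls of *Cd9*.

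**Figure D4:**
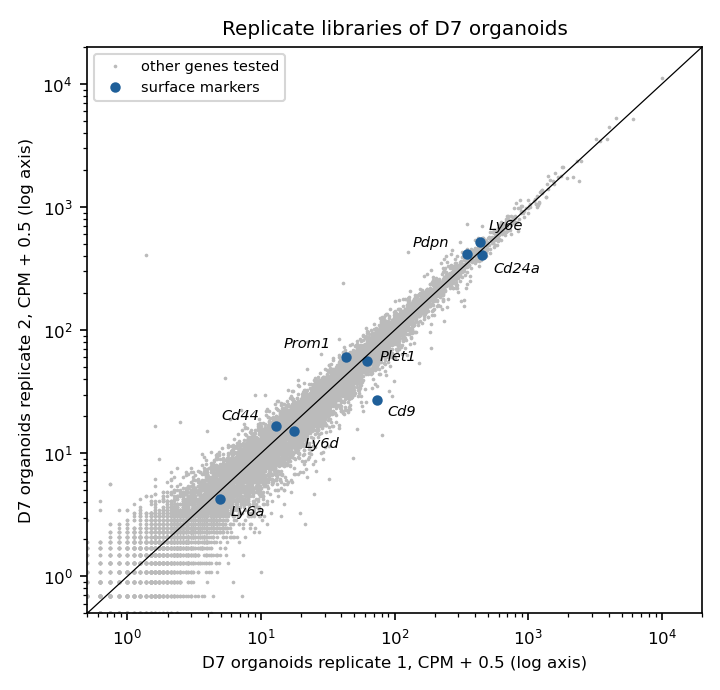
CPM + 0.5 of each tested gene in D7 replicate 2 (vertical, log axis) against D7 replicate 1 (horizontal, log axis), with the 9 members as blue points and the line of equal values. Of the members, *Cd9* lies farthest from the line, at 73.3 CPM in replicate 1 and 26.7 CPM in replicate 2. *Prom1* is next, at 42.7 and 60.5 CPM (a ratio of 1.42).

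Tetraspanins and partners of CD9 make a list of 33 genes, *Cd9* included, of which 25 were tested. Against *in vivo* TECs, 12 were higher and 4 lower in 2D (median log2 fold change of *in vivo* over 2D -0.56), 12 higher and 2 lower in D3 organoids (median -0.68), and 11 higher and 5 lower in D7 organoids (median -0.49). D7 organoids over 2D-cultured TECs had 9 higher and 11 lower, D3 organoids over 2D 3 higher and 6 lower, and D7 over D3 organoids 3 higher and 7 lower. The background was 41.6% of all genes differing for *in vivo* against 2D, 28.2% against D3 and 34.8% against D7 organoids. It was 45.5% for D7 against 2D, 38.3% for D3 against 2D and 20.8% for D7 against D3. *Cd81* and *Cd63* had their highest level in 2D. *Cd81* was at 448 ± 21.8 CPM there against 71.6 ± 3.66 *in vivo* (6.27-fold, adjusted p = 6.7e-10). *Cd63* was at 324 ± 22.3 against 67 ± 7.17 (4.84-fold, adjusted p = 6.4e-09). 2D-cultured TECs also exceeded D3 organoids 2.19-fold in *Cd81* (adjusted p = 1.4e-05) and 2.2-fold in *Cd63* (adjusted p = 1.9e-05). In *Cd9*, D3 organoids and 2D-cultured TECs were not told apart (log2 fold change of D3 over 2D -0.24, adjusted p = 0.56). *Tspan3* was lower in 2D than *in vivo*, at 110 ± 9.06 against 217 ± 1.99 CPM (adjusted p = 4.7e-05). *Tspan1*, a tetraspanin of secretory epithelia chosen after its values were seen, was highest in D7 organoids at 31.2 ± 1.96 CPM, with 13.2 ± 0.0675 in 2D, 4.1 ± 0.656 in D3 organoids and 1.03 ± 0.263 *in vivo* (SD, n = 2). The genes most like *Cd9* were *Txndc5* (r = 0.974), which encodes an enzyme of protein folding, and *Slc10a7* (r = 0.972).

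The 3 members of the Ly6 family encode small GPI-anchored proteins with a fold of 3 loops, and their genes lie in 1 cluster on chromosome 15. *Ly6e* (ENSMUSG00000022587, 74826860 to 74847454, plus strand) is an interferon-inducible member that is broadly expressed and can mark immature thymocytes. Its CPM was 196 and 199 *in vivo*, 412 and 441 in 2D, 271 and 304 in D3 organoids, and 437 and 517 in D7 organoids. D3 organoids stood between the *in vivo* pair and the other cultures, and the 2D and D7 libraries overlapped. *Ly6e* was 2.16-fold higher in 2D (adjusted p = 1.1e-05), 2.41-fold higher in D7 organoids (adjusted p = 4.4e-06) and 1.46-fold higher in D3 organoids (adjusted p = 0.011) than *in vivo*, the last being lost without *in vivo* replicate 1 (adjusted p = 0.061). D7 organoids exceeded D3 organoids (log2 fold change 0.73, standard error 0.15, adjusted p = 0.0022), and D3 organoids had less than 2D-cultured TECs (-0.57, standard error 0.15, adjusted p = 0.0054), which was not past the threshold with no scaling beyond library size (-0.31, adjusted p = 0.11). 2D-cultured TECs and D7 organoids were not told apart (0.16, 95% interval -0.15 to 0.47).

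*Ly6d* (ENSMUSG00000034634, 74633902 to 74635597, minus strand) marks cells late in the medullary lineage and stratified epithelia. It had 51 and 48 counts *in vivo* (8.88 and 6.77 CPM), 42 and 32 in 2D (7.64 and 5.94 CPM), 41 and 51 in D3 organoids (6.93 and 7.13 CPM), and 138 and 74 in D7 organoids (17.1 and 14.6 CPM). The first 3 groups overlapped and the D7 pair was above them. D7 organoids exceeded *in vivo* TECs 2.04-fold (adjusted p = 0.028), 2D-cultured TECs 2.34-fold (adjusted p = 0.0089) and D3 organoids 2.26-fold (adjusted p = 0.023). Each of the 3 differences was lost when D7 replicate 1 was left out (adjusted p = 0.19, 0.088 and 0.16). The first was also lost without *in vivo* replicate 2 (0.11), without D7 replicate 2 (0.088) and with DESeq2's Wald test (0.058), the second without 2D replicate 2 (0.068), and the third without either D3 library (0.11) or D7 replicate 2 (0.095). *Ly6a* (ENSMUSG00000075602, 74863840 to 74869880, minus strand), which encodes Sca1, had the reverse shape, high in 2D and flat elsewhere. It had 485 and 391 counts in 2D and 19 to 48 in the 6 other libraries, so *Ly6a* and *Ly6d* set apart different cultures. *Cd44* was the member nearest to *Ly6a* (r = 0.93 over 8 libraries), while *Prom1* was the nearest to *Ly6d* (r = 0.85). *Dynll1* (0.995) and *Shroom4* (0.995) were most like *Ly6a* among all genes, *Mocs2* (0.974) and *Glo1* (0.970) like *Ly6d*, and *Atp8b1* (0.989) and *Rabac1* (0.987) like *Ly6e*. *Shroom4* was at 28.8 CPM in 2D and between 6.64 and 7.53 CPM in the means of the other groups.

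Reads of *Ly6a* could be shared with other genes, since 32.9% of the stretches of 50 bases near its 3′ end recur in them. Among these, *Ly6c1* had 0 to 12 counts per library, *Ly6c2* 0 to 6, *Gm28068* 0 to 3 and *Ly6i* 0 to 1. *Gm28068* is a gene that overlaps *Ly6a* itself on the opposite strand. *Ly6a2* shares such stretches too, and its counts were not looked up. How shared reads were counted is not known, and their part in the *Ly6a* counts was not tested. For the other members between 0% and 2.66% of such stretches recurred elsewhere.

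Of 44 Ly6 and uPAR family genes matched, 13 were tested, and 13 had 0 counts in every library. The cluster on chromosome 15 (74586682 to 75471331) holds 22 of them, of which 6 were tested. Against *in vivo* TECs, 4 of the 13 tested were higher and 3 lower in 2D, 2 higher and 3 lower in D7 organoids, and 1 higher and 5 lower in D3 organoids. D7 organoids over 2D-cultured TECs had 5 higher and 3 lower, D3 organoids over 2D 1 higher and 4 lower, and D7 over D3 organoids 5 higher and 0 lower. The members' own calls are part of these counts. Among all genes, 41.6% differed between *in vivo* TECs and 2D, 34.8% against D7 and 28.2% against D3 organoids. The same share was 45.5% for D7 against 2D, 38.3% for D3 against 2D and 20.8% for D7 against D3.

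*Lypd1*, which encodes a modulator of nicotinic acetylcholine receptors, had the largest fitted fold between groups among the family genes tested, at 71.3 CPM *in vivo*, 19.6 in D3 organoids, 30.6 in D7 organoids and 0.638 in 2D, where the libraries had 1 and 6 counts. *In vivo* TECs exceeded D7 organoids 2.33-fold in *Lypd1* (adjusted p = 0.00054) and D3 organoids 3.63-fold (adjusted p = 1.2e-05), and 2D differed from every other group (adjusted p from 2.6e-10 to 5e-08). *Plaur*, the receptor of urokinase, had 80 and 95 counts in 2D and 0 to 10 in the other libraries, and 2D differed from each of the other groups (adjusted p = 0.00064 for *in vivo* TECs, 0.0014 for D7 organoids and 0.0017 for D3 organoids). *Ly6h* had 65 to 111 counts in D7 organoids and 26 to 69 *in vivo*, against 1 and 3 in 2D and 1 and 12 in D3 organoids. D7 organoids differed from 2D-cultured TECs (adjusted p = 7.2e-05) and from D3 organoids (adjusted p = 0.0011) in *Ly6h*. *Lypd6* was at 47 to 109 counts *in vivo*, 30 to 44 in D7 organoids and 6 to 11 in the other libraries, and *in vivo* TECs exceeded D3 organoids (adjusted p = 0.00022) and 2D-cultured TECs (adjusted p = 0.00061).

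*Lypd6b* was higher *in vivo* than in D3 organoids (4.24-fold, adjusted p = 0.0005) and D7 organoids (2.41-fold, adjusted p = 0.012). *Cd59a*, an inhibitor of complement, was 5.12-fold higher *in vivo* than in D7 organoids (adjusted p = 0.0034) and 2.81-fold higher than in D3 organoids (adjusted p = 0.042). D7 organoids exceeded 2D-cultured TECs in *Pinlyp* 5.73-fold (adjusted p = 0.017) and D3 organoids 5.05-fold (adjusted p = 0.043). *Lypd3*, a marker of stratified epithelium, had 20 and 37 counts in 2D and differed there from *in vivo* TECs (adjusted p = 0.035) and D7 organoids (adjusted p = 0.04). *Lynx1* (0 to 13 counts) and *Ly6k* (0 to 10 counts) passed the threshold in no comparison. *Lypd2* was below the filter on low counts and was named after its values were seen, with 0 to 103 counts and its 2 highest libraries both D7 organoids.

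**Figure D5:**
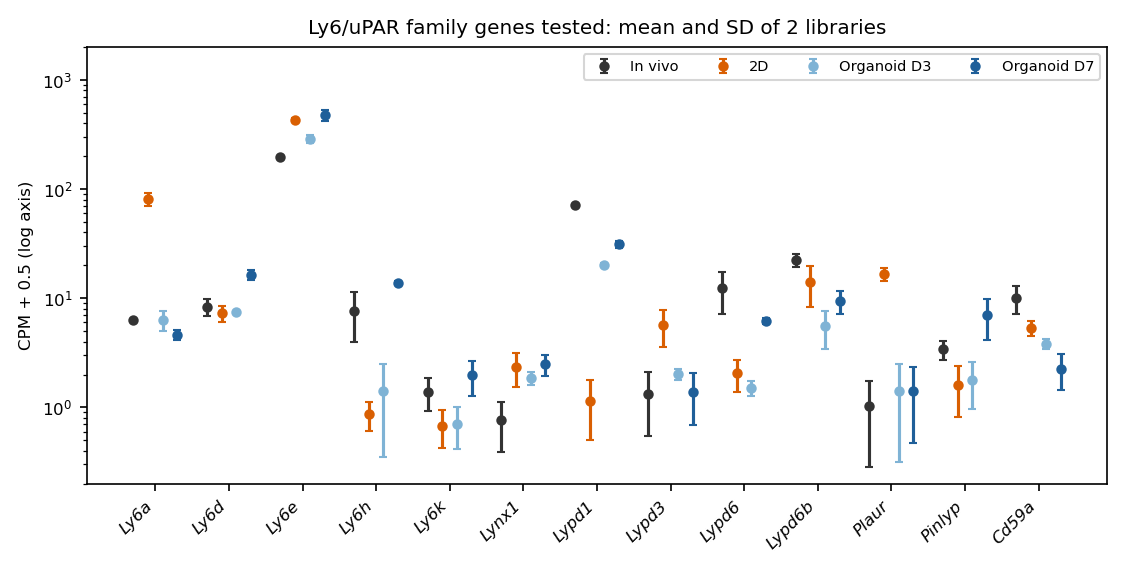
Mean CPM + 0.5 (log axis) and SD of 2 libraries (error bars) of the 13 Ly6 and uPAR family genes tested, in *in vivo* TECs (black), 2D-cultured TECs (orange), D3 organoids (light blue) and D7 organoids (dark blue). *Ly6a* and *Plaur* are high in 2D, and *Lypd1* is low there (0.638 CPM).

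Several members depend on the GPI anchor, which is built in the endoplasmic reticulum and trimmed on the way to the surface. Of 39 genes of its synthesis and processing, 38 were tested. Against *in vivo* TECs, 10 were higher and 1 lower in 2D (median log2 fold change of *in vivo* over 2D -0.23), 12 higher and 2 lower in D7 organoids (median -0.48), and 7 higher and 1 lower in D3 organoids (median -0.29). D7 organoids had 9 higher and 6 lower than 2D (median 0.23) and 7 higher and 2 lower than D3 organoids (median 0.26), and D3 organoids 1 higher and 4 lower than 2D (median -0.02). For comparison, 41.6% of all genes differed between *in vivo* TECs and 2D, 34.8% against D7 and 28.2% against D3 organoids. Between cultures it was 45.5% for D7 against 2D, 20.8% for D7 against D3 and 38.3% for D3 against 2D. Medians over all genes lay between -0.01 and 0.10. The cargo receptor genes *Tmed2*, *Tmed9* and *Tmed10*, which carry anchored proteins out of the endoplasmic reticulum, were higher in 2D than *in vivo* by 2.22-fold, 1.62-fold and 1.64-fold (adjusted p = 0.00021, 0.0022 and 0.0039). *Tmed10* was also 1.67-fold higher in D7 organoids than *in vivo* (adjusted p = 0.0038). In D3 organoids *Tmed2* and *Tmed9* were 1.57-fold and 1.41-fold higher (adjusted p = 0.025 and 0.028). Their remaining differences from *in vivo* TECs did not pass the threshold. *Gpaa1*, a subunit of the transamidase that attaches the anchor, was chosen after its values were seen. It was at 39.7 ± 0.119 CPM in D7 organoids and 17.3 ± 0.269 in 2D (SD, n = 2, 2.29-fold, adjusted p = 0.00028), with 17.8 ± 1.97 *in vivo*. Other subunits on the list did not share this direction as a set. *Pigk* (26.2 against 40.8 CPM), *Pigs* (39 against 41.9) and *Pigu* (9.33 against 12.4) had lower means in D7 organoids than in 2D. *Pigt* had a higher one (4.28 against 2.3).

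Among 21 other surface markers of TECs, 19 were tested. *In vivo* TECs over 2D had 8 higher and 6 lower, over D7 organoids 8 and 7 and over D3 organoids 8 and 6. D7 organoids over 2D had 7 higher and 9 lower, D3 organoids over 2D 4 and 11, and D7 over D3 organoids 9 and 1. As a background, 41.6% of all genes differed between *in vivo* TECs and 2D, 34.8% against D7 and 28.2% against D3 organoids. That share was 45.5% for D7 against 2D, 38.3% for D3 against 2D and 20.8% for D7 against D3. Of these, 4 were picked after their values were seen. *Cldn4*, which marks medullary TECs and their progenitors, was high in 2D as *Cd44* and *Ly6a* were, at 1153 ± 72.8 CPM against 10.4 ± 0.664 in fresh TECs (SD, n = 2). D7 organoids had 60.8 ± 7.17 CPM of it. *Ly75*, which encodes the cortical marker CD205, was at 391 ± 42.7 CPM *in vivo* and between 20.8 and 39.8 in the means of the cultures. *Vcam1* was at 243 ± 5.52 CPM *in vivo*, and at 56.2 ± 1.08 in 2D, 2.82 ± 1.03 in D3 organoids and 30.5 ± 2.75 in D7 organoids. *Ackr4*, a scavenger receptor for chemokines in cortical TECs, was near its *in vivo* level of 158 ± 16.2 CPM in D3 organoids (164 ± 13.9) and at 119 ± 9.38 in D7 organoids, with 2.83 ± 2.69 in 2D (SD, n = 2).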

How the data were processed

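Per the labels and the paper, polyadenylated RNA of 8 libraries was read from its 3′ end with the QuantSeq method, and the reads were aligned to GRCm39 with STAR. The authors deposited whole-number counts per Ensembl gene for each library, neither normalized nor filtered. The annotation release, the use of strand and the treatment of multimapping reads are not given in the sources used here. The submitters' processing notes name R 4.1.2, edgeR and limma.

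Ensembl IDs were matched to symbols and positions in GENCODE vM39 (56236 of 56923 genes). The 14504 genes tested reached 1 CPM in 3 or more of the 8 libraries. All libraries entered 1 model of 4 groups, and the 6 comparisons used the quasi-likelihood test of edgeR after TMM scaling, and a Benjamini-Hochberg adjusted p of at most 0.05 was called (R 4.3.3, edgeR 4.0.16, limma 3.58.1, DESeq2 1.42.0, Python 3.11.15, pandas 2.3.3, matplotlib 3.10.9). The fit was tested on simulated counts. With 2 libraries against 2, an exact two-sided permutation test cannot go below p = 0.333, so the calls rest on a variance moderated across genes. Replicate libraries differed by more than counting noise (chi-square per degree of freedom 6.82 to 8.7), and the gene of 18S ribosomal RNA took 16.6% to 24.3% of counts.

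The members, the gene lists and the rules were chosen with earlier results of these data known. Besides the members, the text names each Ly6 and uPAR family gene that was tested, from the 3 genes of highest mean CPM of the other pathway lists, and the 2 genes most correlated with each member on log2(CPM + 0.5) values. Defining markers of cell types are named as checks, and other genes outside this rule are said to be so. A few results that the rule would name are not reported here. Copies were sought by comparing stretches of 50 bases in the final 500 bases of transcripts. At most 3 counts were read as the floor of a library. Fold changes are of fitted values. Alternatives were DESeq2's size factors, no scaling, DESeq2's Wald test, limma-voom (used by the authors), no filter, a filter at a mean of 10 CPM, a fit of only the 4 libraries compared, a replicate block, leaving out the gene of highest count, and leaving out each library.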

Additional observations from a re-analysis of the deposited data

Results flagged for a closer look

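*Cd44* moved in opposite directions in 2D culture and in D7 organoids: relative to *in vivo* TECs it was higher in both libraries of 2D-cultured TECs and lower in both libraries of D7 organoids. The difference between these changes is the direct comparison of D7 organoids with 2D-cultured TECs, which gave -5.05 on the log2 scale (standard error 0.20) and an adjusted p of 6.4e-12 in edgeR. Time in culture and the matrix cannot be told apart in it. D3 organoids, of the same age as the 2D culture, were not told apart from *in vivo* TECs in edgeR (0.23, adjusted p = 0.35). D3 organoids over 2D-cultured TECs gave -3.18 (standard error 0.18, adjusted p = 4.1e-10), and D7 over D3 organoids gave -1.87 (standard error 0.19, adjusted p = 5.1e-06).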

How the results depend on the processing

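Same-numbered libraries shared a weak common deviation. Their deviations from the group means had correlations of 0.026 to 0.132 over 14504 genes, all positive, and 2 of 6 were above 0.1. With the replicate block, the members called were 7, 7, 6, 6, 5 and 6 in the 6 comparisons, as without it, and 0 of 54 calls changed. Over all genes the block raised the number called in each of the 6 comparisons. The number went from 6033 to 6366 for *in vivo* against 2D, and from 3012 to 3587 for D7 against D3 organoids. Of 480 fold changes of members under the other alternatives, the block included, 463 kept their direction and side of the threshold, 7 lost the call, 3 gained it and 7 changed sign. Of 432 with a library left out, 396 kept both, 24 lost the call, 1 gained it and 11 changed sign. Members called between D3 organoids and 2D-cultured TECs fell from 5 to 3 with no scaling beyond library size, a setting that moved the median log2 fold change of all genes from 0.03 to 0.29 there, from 0.10 to 0.31 for D7 over 2D and from 0.06 to 0.24 for *in vivo* over 2D. The same count was 3 to 5 with a library left out. Sign changes were all in differences not past the threshold. *Prom1* *in vivo* over 2D was 0.17 with no scaling, 0.04 with the filter at a mean of 10 CPM and 0.00 without the gene of highest count, and -0.13 to 0.08 with a library left out. *Ly6a* *in vivo* over D3 organoids was 0.00 with limma-voom, 0.04 with the filter at 10 CPM and 0.00 with only the 4 libraries, and -0.20 to 0.18 with a library left out. *Cd9* in D3 organoids over 2D was 0.02 with no scaling and -0.50 to 0.08 with a library left out. Other ranges with a library left out were -0.00 to 0.39 for *Ly6d* *in vivo* over 2D, -0.05 to 0.32 for *Ly6d* *in vivo* over D3 organoids, -0.12 to 0.24 for *Ly6d* and -0.09 to 0.19 for *Pdpn* in D3 organoids over 2D, and -1.02 to 0.44 for *Cd9* *in vivo* over D7 organoids. *Ly6d* could not be fitted with the filter at a mean of 10 CPM. The cause of these changes was not tested. Low counts limit *Ly6a* outside 2D (19 to 48 per library), *Ly6d* outside D7 (32 to 51), *Prom1* *in vivo* and in 2D (30 to 37) and *Plet1* *in vivo* (37 to 53), and 2 libraries per group limit every call.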

Other observations

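Of 28 interferon-stimulated genes on a list, 25 were tested. *In vivo* TECs over 2D-cultured TECs had 21 higher and 0 lower (median log2 fold change 2.33), over D7 organoids 19 and 0 (median 2.50) and over D3 organoids 21 and 0 (median 3.62). D7 organoids over 2D had 7 higher and 6 lower (median 0.14), D3 organoids over 2D 2 and 9 (median -1.24), and D7 over D3 organoids 9 and 1 (median 0.66). Across all genes, 41.6% differed between *in vivo* TECs and 2D, 34.8% against D7 and 28.2% against D3 organoids. Between cultures the shares were 45.5% for D7 against 2D, 38.3% for D3 against 2D and 20.8% for D7 against D3. All-gene medians lay between -0.01 and 0.10. *Irf1* was 4.88-fold higher *in vivo* than in 2D (adjusted p = 3.6e-08 from edgeR), and *Ifitm3* passed the threshold in none of the comparisons with *in vivo* TECs.

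Among 16 transcription factors of the thymic epithelium, 14 were tested. *In vivo* TECs over 2D had 8 higher and 1 lower (median 0.87), and organoids over 2D had 10 and 0 at D7 (median 1.13) and 8 and 0 at D3 (median 1.03). *In vivo* TECs over D7 organoids had 6 and 5, over D3 organoids 4 and 4, and D7 over D3 organoids 2 and 2. Shares over all genes were 41.6% for *in vivo* against 2D, 34.8% against D7 and 28.2% against D3 organoids. They were 45.5% for D7 against 2D, 38.3% for D3 against 2D and 20.8% for D7 against D3. *Sox9* was 3.5-fold lower *in vivo* than in 2D (adjusted p = 1.9e-08) and 3.52-fold lower than in D7 organoids (adjusted p = 4.1e-08). *Pax1* was 3.7-fold higher *in vivo* than in 2D (adjusted p = 2.7e-08).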
